A study of Homo sapiens with 6 samples.

Results

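The extended major histocompatibility complex (MHC) of human chromosome 6 was taken as every nascent-strand peak that starts at 28.3 to 33.3 Mb on chromosome 6 of T2T-CHM13, the genome build of the deposited lists. Members were thus chosen by position alone. They numbered 713 and 815 in control 1 and 2, and 1096 and 798 in siORCA 1 and 2, or 3422 of the 945863 peaks in all 4 lists. The cells were U2OS, an established human osteosarcoma line. Control samples were transfected with a control siRNA (gl3), and siORCA samples with an siRNA against ORCA, which binds the complex that marks origins and stabilises it on chromatin. Each group had 2 samples. The labels do not say whether these came from separate cultures, so a test reflects just the spread among these samples, and that spread may be technical. The study asked how origin activity differs between the groups, and the level of ORCA itself is not read by this assay.

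Replication starts at many sites along each chromosome, and origins tend to be dense in gene-rich, open chromatin that replicates early and sparse in gene-poor chromatin that replicates late. Nascent-strand sequencing (NS-seq) enriches the short, RNA-primed DNA made at these sites, so a peak marks DNA near an active origin. The MHC is a textbook case of such zoning. From the telomere side it holds class I genes, which present peptides to cytotoxic T cells. The class III block follows, packed with genes of other roles, such as TNF (a cytokine), complement C2 and NOTCH4 (a receptor). Class II genes such as HLA-DRA, which present peptides to helper T cells, come next. A change from early to late replication has long been described near the border of class III and class II.

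In the gene order of RefSeq on GRCh38.p14, 60 protein-coding genes lie between MICB, the last gene of class I, and BTNL2, the gene beside HLA-DRA. Between HLA-F and MICB lie 47, between BTNL2 and HLA-DPB1 17, and between HLA-DPB1 and KIFC1 15. On the class III side of the border, NOTCH4 is followed by TSBP1, BTNL2 and HLA-DRA. These are facts of gene order only. No annotation or sequence of T2T-CHM13 was used here, so no gene was placed on the coordinates below, no class border was drawn, and the region was cut into 5 segments of 1 Mb by position.

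The lists held 181215 to 330265 peaks each, with siORCA 1 the longest and control 1 the shortest. The lists carry no read counts, so depth is unknown. Number and length of peaks can move with depth, and lengths are therefore also given as a share of each list. Two-sided exact permutation tests over 2 against 2 samples cannot go below p = 0.333.

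The MHC region was rich in nascent-strand peaks in every sample. Of its 5 Mb, peaks covered 321.2 kb and 303 kb in control 1 and 2, and 401 kb and 343 kb in siORCA 1 and 2, or 6.42%, 6.07%, 8.02% and 6.86% of the region. Among 621 stretches of 5 Mb over the genome, this ranked 15 and 23 in control 1 and 2, and 24 and 26 in siORCA 1 and 2. The median stretch had 55.5 to 90.1 kb covered. In each sample the region was thus among the most covered stretches of its length. On average 17.1 ± 3.33 peaks started per 100 kb of the region, against 5.03 ± 2.13 in the 5 Mb before it and 17.3 ± 4.05 in the 5 Mb after it (SD over the 4 samples).

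Peaks of the region were also broader than those elsewhere. Their median width was 342 bp and 233 bp in control 1 and 2, and 215 bp and 280 bp in siORCA 1 and 2. In the rest of the same lists it was 216, 189, 167 and 211 bp. Every sample had the wider peaks in the MHC, by 71.8 ± 37.8 bp (SD, n = 4). Peaks of at least 1 kb made up 7.11 ± 1.77% of the region's peaks and 2.78 ± 0.695% of the rest, again with the region higher in 4 of 4 samples. The share of strong peaks, those with a −log10 q of at least 3, was higher in the region by 7.84 ± 0.788 percentage points. The authors' fold enrichment, a linear ratio over the caller's background, had a median of 4.40 ± 0.427 in the region and 4.12 ± 0.307 in the rest. Each of these 4 differences gave p = 0.125, the smallest that an exact permutation of signs over 4 samples can reach, and an adjusted p of 0.147 over the 20 comparisons of this kind. Against the 5 Mb after it, the region was higher in 3 of 4 samples, with 57.5 ± 12.7% strong peaks against 56.3 ± 12.5% (exact permutation p = 0.375, adjusted 0.395, n = 4). Median fold was 4.33 ± 0.401 in those 5 Mb, with the region higher in 3 of 4 samples (exact permutation p = 0.25, adjusted 0.278). Median width there was 226 ± 37.3 bp, and peaks of at least 1 kb made up 5.05 ± 1.23%. The region was higher in both in 4 of 4 samples (exact permutation p = 0.125, adjusted 0.147, for either).

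**Figure D1:**
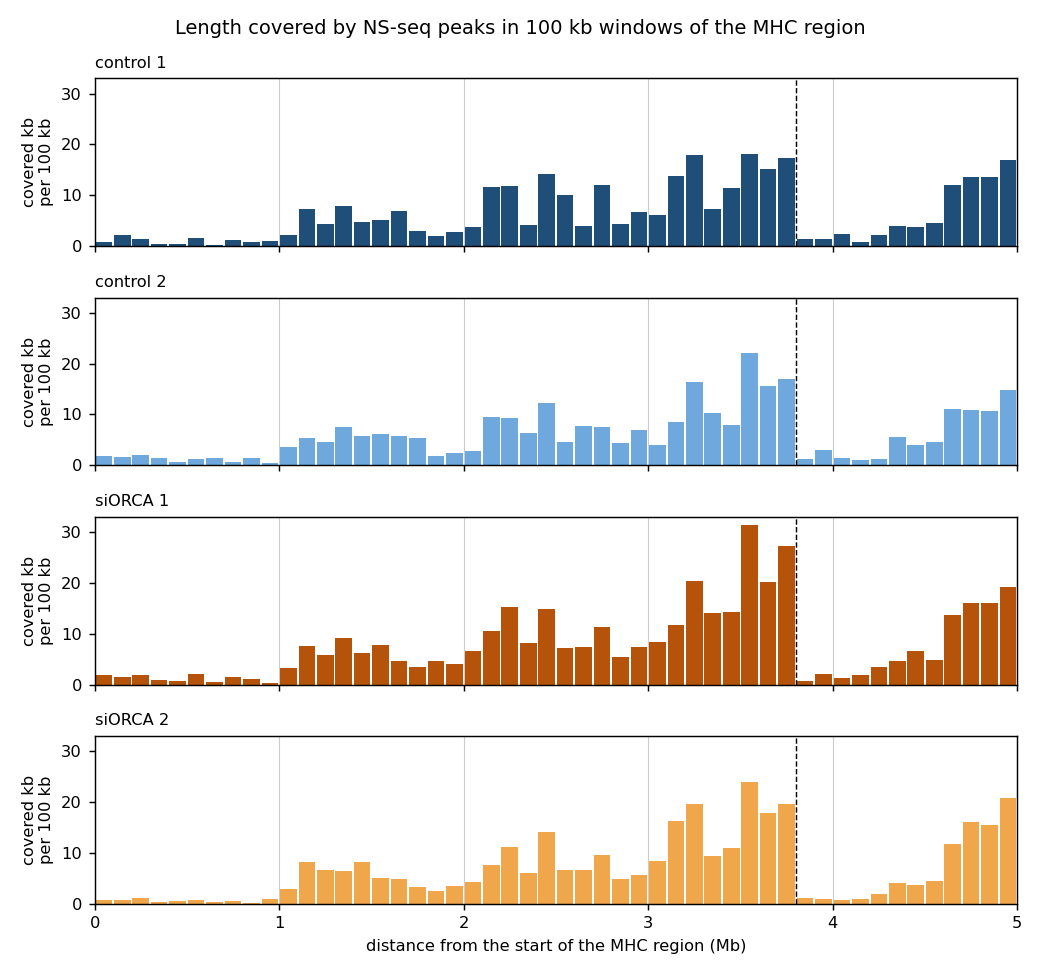
Length covered by peaks (kb, linear axis) in each 100 kb window of the MHC region for the 4 samples, against distance from the region's start in Mb; grey lines mark the 1 Mb segments and the dashed line the largest fall. All 4 profiles are low in the first 1 Mb, climb unevenly to the dashed line, drop there and climb again at the end.

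Within the region, coverage was uneven and followed a similar course in all 4 samples. The plot of covered length by window shows a sparse start, an uneven climb with a dip from 30 to 30.3 Mb, an abrupt fall and a second rise. The least covered window was not the same in all samples. It held 0.144 kb in control 1 (from 28.9 Mb) and 0.494 kb in control 2 (from 29.2 Mb). In siORCA 1 it held 0.289 kb (from 29.2 Mb) and in siORCA 2 0.118 kb (from 29.1 Mb). The most covered window was that from 31.8 Mb in each sample, at 18.2, 22.2, 31.4 and 23.9 kb. Of the 50 windows, 21, 23, 22 and 22 lay above the sample's 90th percentile of all 31185 windows of the genome, while 5, 7, 7 and 5 lay below its median. Between samples the 50 covered lengths correlated at a Pearson r of 0.930 to 0.970 and a Spearman rho of 0.929 to 0.964. This is a description over neighbouring windows of the same cell line.

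The first segment, 28.3 to 29.3 Mb, was the poorest in peaks of the 5 segments. It held 33 and 56 peaks in control 1 and 2, and 67 and 30 in siORCA 1 and 2, covering 10.2 ± 3.04 kb (SD, n = 4). Control 2 and siORCA 1 were the high samples, and the groups overlapped in number. Its density, 4.65 ± 1.79 peaks per 100 kb, was close to that of the 5 Mb before it. Mean covered length per window was 0.967 kb and 1.27 kb in control 1 and 2, and 1.24 kb and 0.613 kb in siORCA 1 and 2. The median window of the genome held 0.83, 1.19, 1.40 and 0.719 kb in the same order. The segment was thus sparse relative to the region, and near a typical window of the genome. The 3 least covered windows of the whole region, from 28.7, 28.9 and 29.2 Mb, all lay here, at 0.558 ± 0.187, 0.597 ± 0.569 and 0.673 ± 0.341 kb.

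Coverage then rose in the second segment, 29.3 to 30.3 Mb, to 45.9 kb and 48.6 kb in control 1 and 2, and 56.5 kb and 51.7 kb in siORCA 1 and 2. The third segment, to 31.3 Mb, held 82.3, 71.2, 94.0 and 76.9 kb in the same order. The fourth, to 32.3 Mb, was the most covered in every sample, at 109.8, 105.9, 150.4 and 128.2 kb. It alone held 34.2% to 37.5% of the region's covered length. The last segment fell back to 73.4, 64.9, 87.7 and 80.2 kb. In each sample the order by covered length was the fourth, the third, the fifth, the second and the first segment, except in siORCA 2, where the fifth stood above the third.

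**Figure D2:**
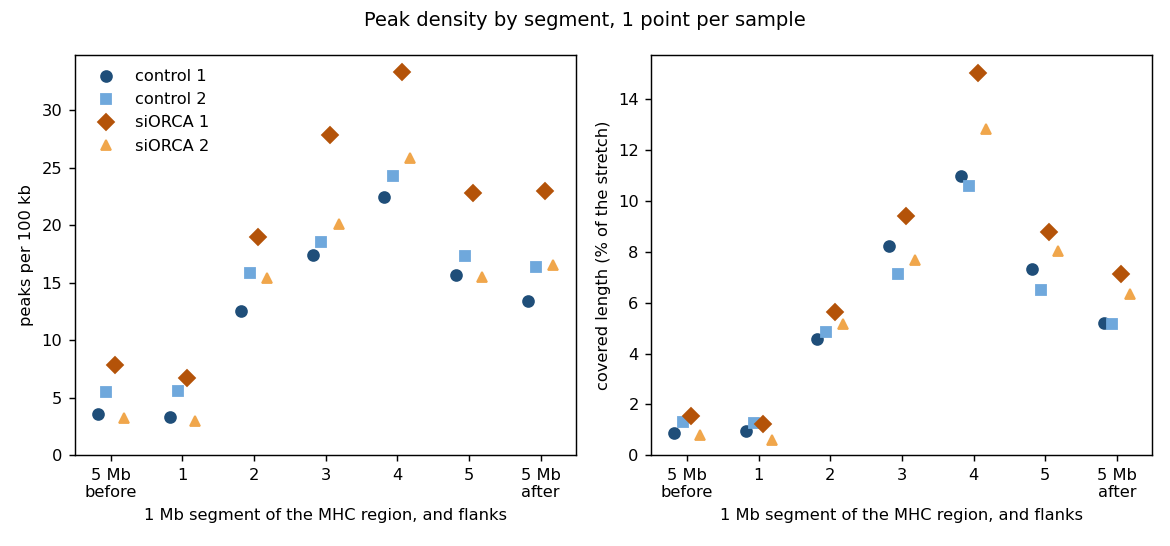
Peaks per 100 kb (left) and percent of the stretch covered (right) in the 5 MHC segments and in the 5 Mb before and after the region, with 1 point per sample. Segment 4 is highest in every sample, at 22.4 to 33.3 peaks per 100 kb, and segment 1 lies at 3.00 to 6.70.

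The segments also differed in peak width, which was lowest in the first and highest in the fourth. Median width was 172 ± 26.3 bp in the first segment, 232 ± 54.0 bp in the second, 258 ± 56.2 bp in the third, 324.5 ± 52.5 bp in the fourth and 288 ± 62.0 bp in the fifth (SD, n = 4 samples each). Strong peaks rose from 38.5 ± 18.8% of the first segment to 63.1 ± 10.1% of the fourth. In the rest of the lists too, strong peaks made up a larger share in siORCA, 64.6% and 56.8%, than in control, 35.8% and 41.5%. The 3 most covered windows all lay in the fourth segment, from 31.8 Mb at 23.9 ± 5.55 kb, from 32 Mb at 20.3 ± 4.83 kb and from 31.5 Mb at 18.6 ± 1.81 kb.

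The sharpest feature of the profile was the fall at 32.1 Mb. At each boundary between windows, the mean covered length of the 5 windows before was set against that of the 5 windows after. The largest fall within the region was at 32.1 Mb in all 4 samples. Coverage dropped there from 13.9 to 1.61 kb per window in control 1, from 14.6 to 1.56 kb in control 2, from 21.4 to 1.89 kb in siORCA 1 and from 16.4 to 1.16 kb in siORCA 2. The mean fall was 15.0 ± 3.28 kb per window (SD, n = 4). Samples differed in the place of the largest rise, 32.8 Mb in control 1 and siORCA 2 and 31.5 Mb in control 2 and siORCA 1. Among 30969 such boundaries over the genome, steps in either direction taken by size, the one at 32.1 Mb ranked 9 and 2 in control 1 and 2, and 1 and 5 in siORCA 1 and 2. Ranked instead by log2 of the ratio of the sides, each with 1 kb added, it stood at 23, 6, 8 and 8. The boundary was picked as the region's largest, so these ranks describe it and test nothing.

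The windows on either side show how abrupt the change was. The window from 32 Mb held 33 and 38 peaks in control 1 and 2, and 43 and 37 in siORCA 1 and 2. The next window, from 32.1 Mb, held 5, 6, 2 and 4. Within 200 kb before the boundary lay 10, 9, 14 and 12 peaks of at least 1 kb, and within 200 kb after it 0, 1, 0 and 0. In bins of 10 kb, the last bin with at least 1564 bp covered in every sample ran from 32070001 to 32080000. The next bin held 230 bp in control 1, 255 bp in control 2 and 0 bp in both siORCA samples.

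**Figure D3:**
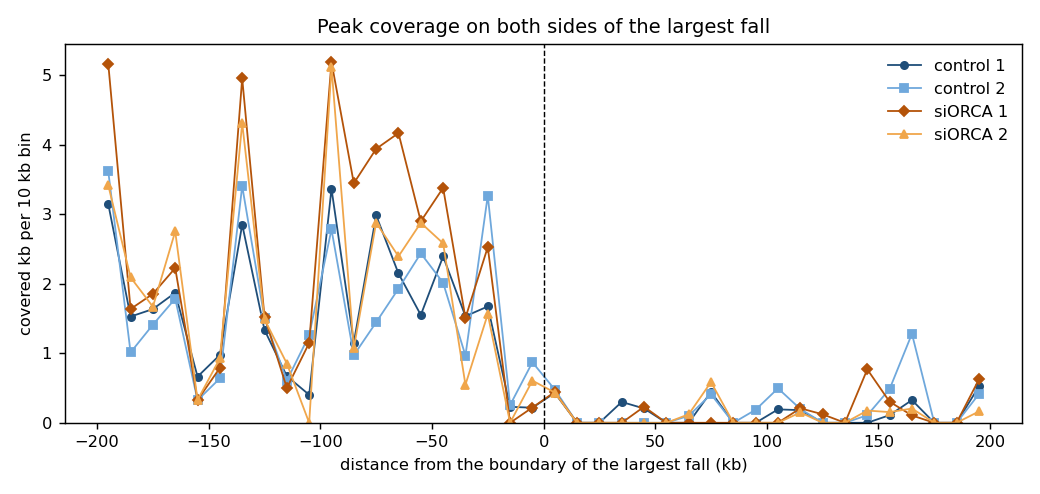
Covered length (kb per 10 kb bin) from 200 kb before to 200 kb after the boundary of the largest fall, 1 line per sample. Coverage reaches up to 5.19 kb per bin before the boundary, is low from 20 kb before it, and stays at or below 1.28 kb per bin after it.

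A single strong site stood at the foot of the fall. At chr6:32108022-32108468 all 4 lists held a peak, 357 to 443 bp wide, with a fold enrichment of 33.4 and 11.7 in control 1 and 2, and 69.5 and 34.3 in siORCA 1 and 2. It ranked 2, 11, 3 and 2 among the region's peaks in those lists. The next peak toward the centromere began 21.8 kb and 57.1 kb further on in control 1 and 2, and 37.98 kb and 57.1 kb in siORCA 1 and 2. No list held a peak in the 20 kb from 32110001 to 32130000.

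From 32.1 to 32.6 Mb coverage stayed at 1.55 ± 0.301 kb per window (SD, n = 4), with 31 and 35 peaks in control 1 and 2, and 44 and 23 in siORCA 1 and 2. The median window of the genome held less in each sample, 0.719 to 1.40 kb, so this stretch was sparse relative to the region. This stretch and the next ones were drawn after the profile was seen. From 32.6 to 32.9 Mb coverage was 4.53 ± 0.624 kb per window. It then rose to 14.5 ± 2.08 kb from 32.9 Mb to the region's end. The sparse stretch at the fall was thus bounded on both sides within the region, and in each sample it held somewhat more peaks per 100 kb than the region's start, 4.60 to 8.80 against 3.00 to 6.70.

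Stretches of at least 20 kb without a peak numbered 52 and 51 in control 1 and 2, and 30 and 51 in siORCA 1 and 2. The first 1 Mb held 18, 19, 15 and 18 of them, and 32.1 to 32.6 Mb another 9, 9, 6 and 10. The longest in any list was 96.9 kb, in control 1 at chr6:28879657-28976532, and siORCA 2 lacked peaks over nearly the same bases for 96.1 kb. With all 4 lists laid together 11 such stretches were left, the longest 44.9 kb at chr6:28902302-28947186.

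The strongest site shared by all lists was at chr6:33241305-33244588, near the region's end. Its fold enrichment was 36.0 and 38.9 in control 1 and 2, and 152 and 67.3 in siORCA 1 and 2, the highest of the region in each list and rank 170, 75, 16 and 37 in the whole lists. The site at chr6:33261461-33262296 had folds from 26.7 to 29.8 and ranked 3 and 2 among the region's peaks in control 1 and 2, and 18 and 3 in siORCA 1 and 2. At chr6:31428126-31430688 the fold was 86.3 in siORCA 1 and 7.05 to 10.6 in the other samples, with ranks of 46 and 15 in control and 2 and 31 in siORCA. At chr6:29498890-29500032 it was 55.9 in siORCA 1 and 7.36 to 17.8 in the others, with ranks of 40 and 16 in control and 5 in both siORCA lists. Folds come from separately called lists of unknown depth, so their size across lists shows no change.

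The widest shared sites were not the strongest. The site at chr6:30547769-30551926 spanned 4158 bp, of which peaks covered 3305 bp and 2082 bp in control 1 and 2, and 2894 bp and 2874 bp in siORCA 1 and 2. Its mean fold was 9.70 ± 2.60 (SD, n = 4). Sites of 3960 bp at chr6:31893592-31897551 and of 3568 bp at chr6:30745172-30748739 had mean folds of 5.27 ± 1.27 and 5.41 ± 0.257. All 3 lay in the stretch of high coverage before the fall.

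Peaks of the 4 lists that touched or overlapped merged into 1538 regions in the MHC, of which 317, or 20.6%, were in all 4 lists and 729, or 47.4%, in 1 list. Over the whole genome 10.7% of 535576 merged regions were in all 4 lists and 60.1% in 1. The 317 shared regions had a median width of 964 bp, and 153 of them spanned at least 1 kb. Recurrence was lowest in the sparse first segment and highest in the fourth. None of the 144 merged regions of the first segment was in all 4 lists (0), against 17.0% of 306 in the second, 17.7% of 385 in the third, 32.3% of 393 in the fourth and 22.6% of 310 in the fifth. In the sparse 32.1 to 32.6 Mb, 3 of 82 were in all lists, the site at the foot of the fall among them.

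**Figure D4:**
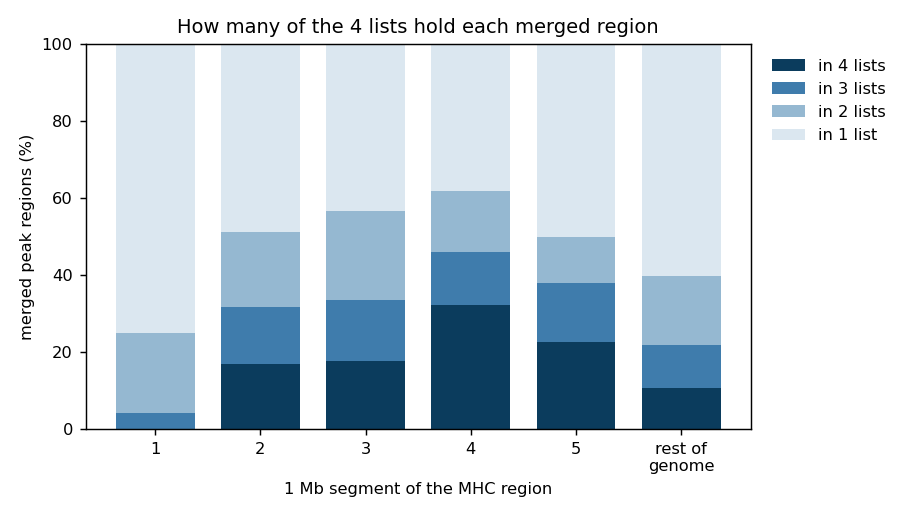
Percent of merged peak regions found in 4, 3, 2 or 1 of the lists, for the 5 MHC segments and the rest of the genome. Segment 4 has the largest share in all 4 lists (32.3%) and segment 1 has none, with 75.0% in a single list.

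Overlap between samples was higher in the region than over the genome for each of the 6 pairs. The Jaccard index, shared length over joint length, ran from 0.271 to 0.385 in the region and from 0.185 to 0.291 over the genome. It was 0.276 between the controls and 0.385 between the siORCA samples. Control 1 with siORCA 2 reached 0.379, so overlap did not follow the groups alone.

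siORCA and control did not separate over the region as a whole. Of its list's covered length, the region held 0.549% and 0.452% in control 1 and 2, and 0.465% and 0.536% in siORCA 1 and 2. Both siORCA values lay between the control values. The control mean was 0.5004 ± 0.0685% and the siORCA mean 0.5005 ± 0.0499% (SD, 2 samples each; exact permutation p = 1). By number the region held 0.369 ± 0.0339% of the control peaks and 0.367 ± 0.0496% of the siORCA peaks (SD, n = 2 each; exact permutation p = 1).

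Without division by list length, both siORCA samples lay above both controls, at 372.1 ± 41.0 kb against 312.2 ± 12.7 kb covered and 70.0 ± 7.07 against 49.5 ± 6.36 peaks of at least 1 kb (SD, 2 samples each; either gave an exact permutation p = 0.333). As a share of the region's peaks, those of at least 1 kb overlapped between the groups. They made up 7.57% and 5.52% in control 1 and 2, and 5.93% and 9.40% in siORCA 1 and 2. Strong peaks made up 44.3% and 49.6% of the region in the controls and 71.3% and 64.9% in siORCA. The share of strong peaks also stood apart in this direction in the rest of the lists, as given above. So did the number of peaks of at least 1 kb, at 5916 and 5401 in control 1 and 2, and 6836 and 6861 in siORCA 1 and 2. Covered length did not, since siORCA 2 lay between the controls in the rest of the lists.

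No single 100 kb window of the region passed the test. In a limma fit over 22447 windows of the genome, 0 of the region's 50 windows passed an adjusted p of 0.05, and 0 had an unadjusted p under 0.05. Over the genome limma also called 0 windows (0%), and 999 (4.45%) had an unadjusted p under 0.05. The median log2 difference (siORCA minus control, in shares of covered length) was −0.06 in the region and −0.06 over all windows. Both siORCA shares lay above both control shares in 6 of the 50 windows and below them in 8, or 12% and 16%, against 14.5% and 17.4% of all windows. The median SE of the region's windows was 0.35 on the log2 scale, with 2 samples in each group, and a count of 0 does not show that no window changed.

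**Figure D5:**
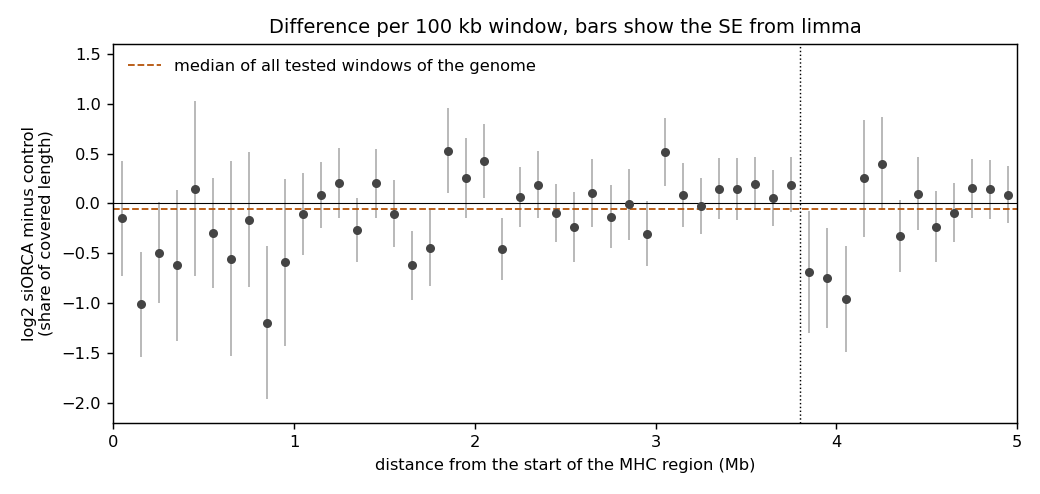
Log2 difference in share of covered length, siORCA minus control, for the 50 windows of the MHC region, with the SE from limma, against distance from the region's start in Mb; the dashed line is the median of all tested windows and the dotted line the fall. No window passed the test, and SEs are widest in the sparse windows.

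The windows with the smallest p were described by rule. The window from 28.4 Mb held 2.19 kb and 1.68 kb in control 1 and 2, and 1.49 kb and 0.723 kb in siORCA 1 and 2, which is log2 −1.01 (SE 0.53). The window from 32.3 Mb held 2.36, 1.49, 1.37 and 0.832 kb (log2 −0.95, SE 0.53), and the one from 29.9 Mb 6.80, 5.79, 4.71 and 4.87 kb (log2 −0.62, SE 0.35). In these 3 windows both siORCA samples lay below both controls. Above control stood the windows from 31.3 Mb (log2 0.51, SE 0.34), where the groups overlapped, from 30.1 Mb (0.53, SE 0.42) and from 30.3 Mb (0.43, SE 0.37). The adjusted p in limma was 1.00 for all 6, and from 0.627 to 1.00 over the alternatives.

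The first segment and the stretches from 32.1 to 32.6 Mb and from 32.6 to 32.9 Mb held lower shares in siORCA, without a call. The first segment held 0.0177 ± 0.00169% of the control lists and 0.0120 ± 0.00336% of the siORCA lists, with no overlap (SD, n = 2 each; exact permutation p = 0.333, adjusted 1 over 5 segments). Of its 10 windows 9 had a log2 difference below 0, with a median of −0.53. Among all 12680 tested windows of the genome with a mean under 2 kb covered, 62.7% were below 0, with a median of −0.20. Without siORCA 2 the counts were 6 of 10 windows and 49.6% of all sparse windows. With strong peaks only the segment's difference turned to 0.000316 percentage points above control. The stretch from 32.1 to 32.6 Mb held 0.0127 ± 0.00155% of the control lists and 0.0100 ± 0.00135% of the siORCA lists, and that from 32.6 to 32.9 Mb 0.0208 ± 0.000244% and 0.0188 ± 0.000277% (SD, 2 samples each). The groups did not overlap in either, but both stretches were drawn after the profile was seen and were not tested. Of their windows, 3 of 5 and 2 of 3 had a log2 difference below 0. With strong peaks only, these counts were 3 of 5 and 1 of 3, with medians of −0.14 and 0.13. Each window from 32.6 to 32.9 Mb had a mean above 2 kb, outside the class of sparse windows used above. In the other 4 segments the groups overlapped, with differences from −0.00886 to 0.0146 percentage points of the list (exact permutation p from 0.667 to 1).

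The fall at 32.1 Mb was present in both groups. The ratio of the sides was 8.59 in control 1 and 9.36 in control 2, against 11.4 in siORCA 1 and 14.1 in siORCA 2. The siORCA ratios were thus the higher, also at 12.4 and 14.4 against 8.59 and 9.42 with all lists shortened to the same covered length. With strong peaks only the groups overlapped, at 20.2 and 9.63 in control and 12.4 and 15.1 in siORCA. No test was run on this ratio.

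Merged regions present in both siORCA lists and neither control list, called gained, numbered 100 in the MHC, or 6.50%, against 5.44% over the genome. Regions in both control lists and neither siORCA list, called lost, numbered 16, or 1.04%, against 1.67%. Both shares lay near the background. With lists shortened to the same covered length there were 66 gained and 31 lost (5.16% and 2.43%, against 4.32% and 2.67% over the genome). Gained regions per segment numbered 7, 21, 30, 29 and 13, and lost ones 4, 5, 5, 1 and 1. These are out of 144, 306, 385, 393 and 310 merged regions, so the counts also move with the number of regions. Of the 82 merged regions in the sparse 32.1 to 32.6 Mb none was gained (0) and none lost (0). With so few regions, and genome shares of 5.44% and 1.67%, these zeros say little.

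The widest gained regions were at chr6:30315751-30317114, with 1288 bp covered in siORCA 1 and 573 bp in siORCA 2, at chr6:31801455-31802463, with 577 and 739 bp, and at chr6:31564975-31565866, with 892 and 166 bp. The widest lost regions all lay in the second segment. At chr6:29642535-29643827 peaks covered 402 bp in control 1 and 1293 bp in control 2, at chr6:29935929-29936887 446 and 622 bp, and at chr6:29805769-29806614 846 and 163 bp. Folds at these 6 sites were low, with means from 4.01 to 5.24, close to the medians of the lists.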

How the data were processed

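The submitters' processing notes name BWA, SAMtools, MACS2 and the T2T-CHM13 build; versions and settings are not given in the sources used here. There is 1 deposited list of broad peaks per sample. Each deposited peak has a position, a score, a fold enrichment as a ratio and a −log10 p and −log10 q (lowest 1.303). The 2 genomic DNA samples in the labels were not analysed here.

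Covered length was summed in 100 kb windows of all nuclear chromosomes. Windows with a mean of at least 500 bp were tested as log2 of covered length plus 200 bp over the list's total, in limma 3.58.1 (R 4.3.3; eBayes with trend, Benjamini-Hochberg over all windows, threshold 0.05), without a replicate block. The fit was also run on simulated data with independent noise, where it missed the smaller changes that were put in. Single values used exact permutation tests. Other steps used Python 3.11.15. Windows and sites were named by rule: smallest p (3 each way), highest and lowest coverage (3 each), the 5 strongest and 3 widest shared sites, and the 3 widest gained and lost. The region, lists and rules were chosen with earlier results of these data known. Gene order came from RefSeq's GRCh38.p14 table, which held 135 of 137 listed MHC genes. No reference of T2T-CHM13 was used, so genes, class borders and peak sequences were not analysed here. Precision is limited by 2 samples per group, and depth is unknown.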

Additional observations from a re-analysis of the deposited data

How the results depend on the processing

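The place of the largest fall, 32.1 Mb, was the same in stricter lists (−log10 q of 3 or more), in lists shortened to equal covered length, with 3 windows on each side and without each sample. Its size was 11.2 kb per window with the stricter lists, 19.0 kb with 3 windows on each side, and 13.5 to 15.9 kb without each sample in turn. No window of the region was called (0 in limma) with a pseudocount of 1000 bp, no filter, median centring or the replicate block. The same held for windows shifted by 50 kb, 1 Mb windows, and stricter or shortened lists. Over the genome limma called 3 of 31185 windows with no filter and 1 of 22455 shifted windows. It called 1 of 15148 with stricter lists and 4 of 20014 with shortened lists. With the pseudocount of 1000 bp, median centring, the replicate block and 1 Mb windows it called 0. Fits without a sample are not counted here. Stricter lists left 43 windows of the region to test, and shortened lists 47. The pairing was not clear from the labels, and the replicate block left the share of covered length at a difference of 8.7e-05 percentage points and called 0 windows of the genome. Median centring moved the median log2 difference of all windows from −0.06 to 0.08, and that of the region likewise. Deviations of same-numbered samples correlated at −0.20, and a crossed pairing, chosen after seeing the data, called 7 windows of the genome and 0 of the region.

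Differences in shares between groups changed sign under the settings given here; the cause was not tested. For the region's covered length the difference was −0.0483 percentage points with the stricter lists, and −0.0484 to 0.0485 without each sample. For peaks it was 0.0195 with shortened lists, and −0.0376 to 0.0325 without each sample. By segment, the stricter lists gave 0.000316, 0.00282, −0.00792 and −0.0111 in segments 1, 2, 4 and 5, and shortened lists gave 0.00046 in segment 3. Segment 3 kept its sign at −0.0324 with the stricter lists and segment 4 at 0.0319 with shortened lists (exact permutation p = 0.333 for either). Segment 1 kept its sign with shortened lists (−0.00636) and without each sample (−0.00814 to −0.00338). Without each sample the ranges were −0.00982 to 0.00537 in segment 2, −0.0262 to 0.00846 in segment 3, −0.000405 to 0.0295 in segment 4 and −0.012 to 0.0167 in segment 5.

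Gained regions numbered 110 with the stricter lists (11.1%, against 9.16% over the genome) and 66 with shortened lists (5.16% against 4.32%). With gaps of 1 kb merged there were 46 (5.02% against 5.36%). Without each sample in turn there were 168 to 433 (12.6% to 29.0%, against 10.7% to 35.0%). Lost regions numbered 6 with the stricter lists (0.605% against 0.684%), 31 with shortened lists (2.43% against 2.67%), and 43 to 243 without each sample (3.35% to 16.6%, against 3.40% to 21.3%). Leaving a sample out makes a group of 1 list, which by construction admits more regions.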
